A study of Arabidopsis thaliana with 12 samples.

Results

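The response of npf8.4-1 leaves to nitrogen depletion was read from 6 libraries of 12 in the series, namely 3 labelled npf8.4-1 at day 0 and 3 labelled npf8.4-1 at day 2. The libraries were taken by their genotype and time labels alone. All plants were Arabidopsis thaliana that had spent 15 days in hydroponic culture with 5 mM KNO3. Day 0 leaves were harvested at that point, and day 2 leaves came from plants kept on a medium without nitrogen for another 2 days. The other 6 libraries were of the reference accession Col-0, handled in the same way, with 3 at each day. Each library held poly(A) RNA of young leaves from a pool of 15 plants, so a replicate is a pool and not a single plant. Only 1 mutant allele was used, and where the mutation lies in NPF8.4 was not given by the labels. Plants at day 2 were 2 days older than those at day 0, so depletion and age cannot be told apart.

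NPF8.4, also called PTR4, belongs to the NPF family and, within it, to the peptide transporters, whose members move nitrate, peptides, hormones and other small solutes across membranes. It lies in the tonoplast, the membrane of the vacuole, where leaf cells store nitrate, sugars and organic acids. The study asked about its part in the vacuolar storage of glycerate, an intermediate of photorespiration, and in the balance of carbon and nitrogen. Leaves that run out of nitrate are known to stop investing in new ribosomes and cells, to take up ammonium and amino acids released by protein breakdown, and to send nitrogen to other organs through the phloem.

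The 6 mutant libraries held between 29096967 and 34282716 exon reads. A principal component analysis of these 6 libraries put 85.4% of the variance on its first component, computed from log2 CPM (counts per 1000000 reads, scaled by the trimmed mean of M values). Day 0 libraries lay at −55.7, −78.6 and −85.2 on it and day 2 libraries at 83.9, 82.2 and 53.5. Replicate 1 of day 0 and replicate 3 of day 2 were thus nearest to the other day. Markers were read beside the labelled tissue. The young leaf and mesophyll markers are photosynthesis genes and do not tell young leaves from other green tissue. They took between 4.80% and 5.87% of the reads in each of the 6 libraries. Of the root markers 13 of 20, and of the meristem and flower markers 10 of 13, were too low to pass the count filter. Of all 37242 genes 19416 passed it.

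The mutated gene had few reads in every mutant library. NPF8.4 (AT2G02020, chromosome 2, 478977 to 481185) was counted 25, 10 and 10 times at day 0 and 22, 47 and 22 times at day 2. The day 0 count of replicate 1 lay within the day 2 range, and the difference did not pass (log2 fold change 0.81 with SE 0.41, edgeR adjusted p = 0.101). Without that library it passed, with a log2 fold change of 1.34 and an edgeR adjusted p of 0.0196, as it did with all libraries by DESeq2 at 0.0463.

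Most tested genes differed between the days in the mutant. Of 19416 genes that passed the filter on low counts, 6303 (32.5%) were higher and 6141 (31.6%) lower at day 2, 64.1% together, by the edgeR quasi-likelihood test with Benjamini-Hochberg adjustment at 0.05. A change of at least 2-fold was reached by 2351 of those higher (12.1% of tested genes) and 2753 of those lower (14.2%). The median log2 fold change over all tested genes was 0.03. All 3 day 2 libraries lay above all 3 day 0 libraries for 35.5% of tested genes and below them for 34.4%. Against these shares, the named groups below are read by how many members passed in each direction and by their median. Lists were compiled by gene function, and 1379 of their genes were tested.

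**Figure D1:**
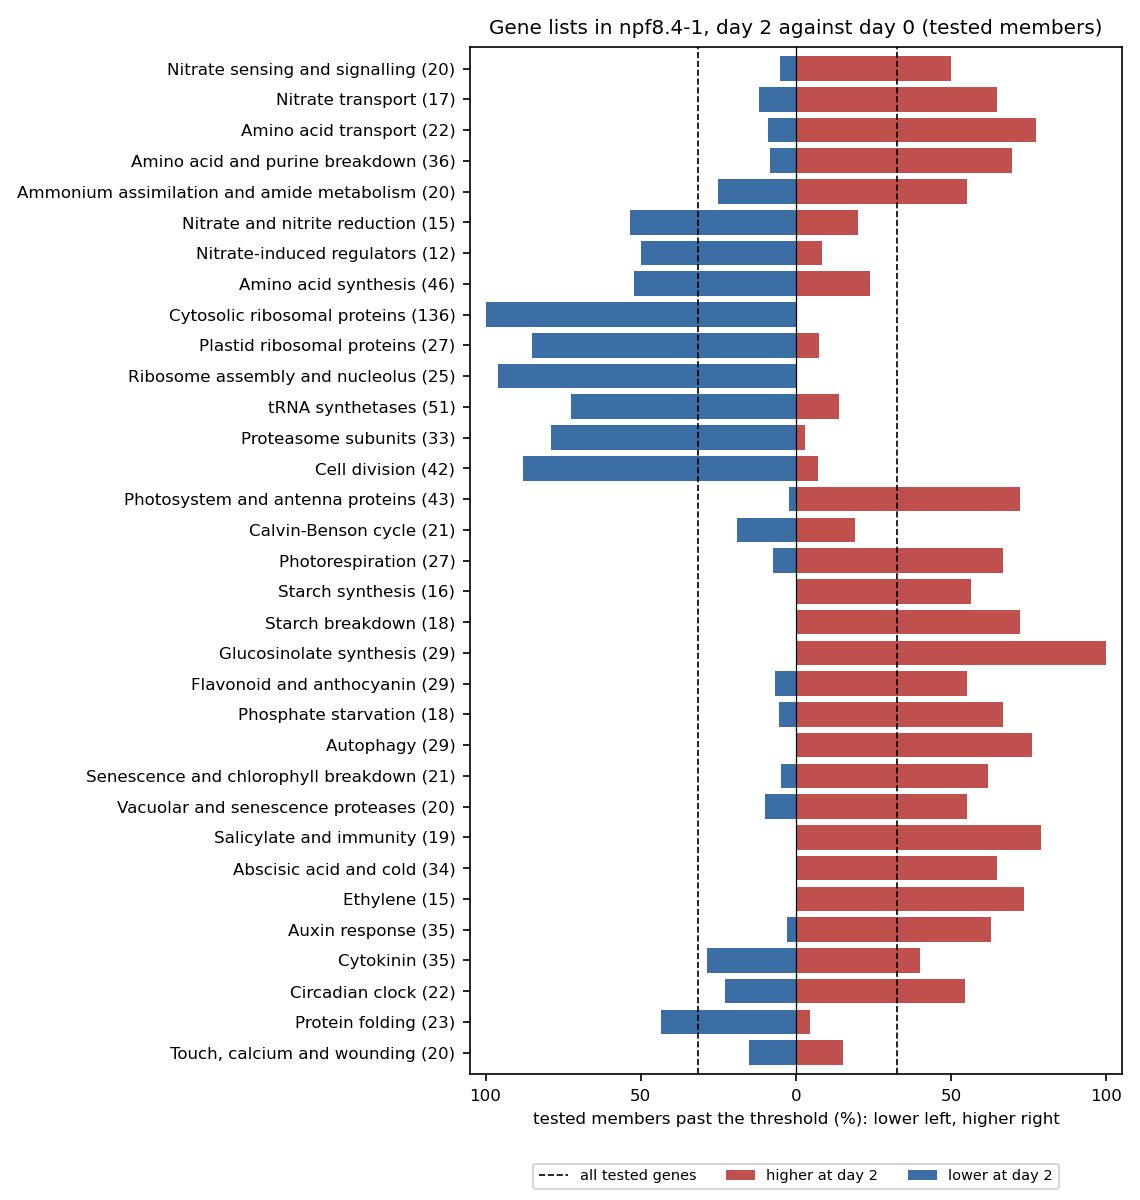
Share of tested members of 33 gene lists that passed the edgeR threshold in npf8.4-1, lower at day 2 to the left and higher to the right, as a percentage of the number tested, which stands in brackets. Dashed lines give the shares over all tested genes, 31.6% lower and 32.5% higher, and the bar of cytosolic ribosomal proteins reaches 100% on the lower side while that of glucosinolate synthesis reaches 100% on the higher side.

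Several genes went from no reads to many. AT1G76960, a gene of unknown function, had 0 reads in all 3 day 0 libraries and 756, 744 and 188 at day 2, a level at least 488-fold higher when the day 0 group is set at 3 counts. By the same bound the nudix hydrolase gene NUDT24 was at least 190-fold higher and GolS2, a galactinol synthase that opens the path to raffinose sugars, at least 176-fold higher. Both amino acid exporter family genes UMAMIT17 (at least 68.5-fold) and UMAMIT20 (at least 63.5-fold) also had 0 reads at day 0, as did PIN5, an auxin carrier of the endoplasmic reticulum (at least 44.2-fold). An ankyrin repeat gene, AT5G15500, was at least 65.0-fold higher and PCR1, for cadmium resistance, at least 38.4-fold higher. Adjusted p by edgeR was at most 0.00998, for PCR1. No gene with 100 or more reads over the day 0 libraries had 0 reads over those of day 2.

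Among the 10 largest increases were 2 genes of signalling and defence. AHP4, a phosphotransfer protein of cytokinin signalling, stood at 0, 0.236 and 0.104 CPM at day 0 and 30.0, 22.0 and 17.7 CPM at day 2. LURP1, a gene of resistance to downy mildew, stood at 1.59, 0.169 and 0.242 CPM at day 0 and 138, 133 and 66.7 CPM at day 2. Neither gene reached in any day 0 library a level near that of any day 2 library, and replicate 1 was the highest day 0 library for LURP1. The log2 fold changes were 7.66, SE 0.47 for AHP4 and 7.35, SE 0.63 for LURP1. The TRAF-like gene AT4G01390 went from 1 read over the day 0 libraries to 1811 over those of day 2, a ratio of 1569 after scaling by library size, with a 95% counting interval from 281 to 62014. The others were the tetratricopeptide repeat gene AT1G80130 (6.48, SE 0.40), BGLU11, of the beta-glucosidase family (6.37, SE 0.72), the pectin acetylesterase gene AT1G57590 (6.30, SE 0.42) and NAS3, a nicotianamine synthase for metal transport (6.13, SE 0.67). By edgeR the highest adjusted p of the 10 largest increases was 0.00144, for NUDT24.

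The 10 largest decreases began with nitrate-responsive regulators. BT2, a scaffold protein with BTB and TAZ domains that nitrate induces, went from 12.1, 10.2 and 16.9 CPM to 0.0287, 0 and 0.0899 CPM. LBD39, which nitrate also induces and which holds back anthocyanin synthesis, went from 6.81, 9.35 and 5.84 CPM to 0.172, 0.140 and 0.300 CPM. Both were near 0 in every day 2 library. The log2 fold changes were −8.27, SE 0.65 for BT2 and −5.15, SE 0.32 for LBD39. Next came AT1G73510, of unknown function (−3.79, SE 0.74), the methionine sulfoxide reductase gene MSRB9 (−3.73, SE 0.35), the ribosomal L10 family gene AT2G40010 (−3.64, SE 0.22) and the embryo-defective gene EMB3120 (−3.55, SE 0.28). The transporter gene AT1G66760 of the MATE family (−3.52, SE 0.24), the plastid thioredoxin gene ACHT5 (−3.39, SE 0.22), the raffinose synthase family gene DIN10 (−3.16, SE 0.46) and the alpha-amylase family gene EMB2729 (−3.14, SE 0.29) completed the list. No edgeR adjusted p here exceeded 0.000938, for AT1G73510.

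Of 12 tested regulators that nitrate induces, 6 fell, 1 rose and 5 did not pass, with a median log2 fold change of −0.73. BT5 went from 169, 101 and 151 CPM to 49.5, 41.9 and 39.9 CPM (log2 fold change −1.68 with SE 0.20, edgeR adjusted p = 2.01e-05). HHO3, a GARP repressor of starvation genes, went from 80.8, 65.5 and 78.8 CPM to 42.4, 26.4 and 30.9 CPM (log2 fold change −1.17 with SE 0.18, edgeR adjusted p = 0.000109). Every day 2 library lay below every day 0 library for both genes. BT3 was the member that rose, from 0.541, 0.911 and 0.242 CPM to 4.40, 3.95 and 2.40 CPM (2.65, SE 0.37). LBD38, a paralog of LBD39, stood at 4.87, 6.01 and 4.15 CPM at day 0 and 3.59, 2.55 and 2.52 CPM at day 2 (log2 fold change −0.79 with SE 0.28, edgeR adjusted p = 0.0231). Its call ended without day 0 replicate 2, day 2 replicate 2 or day 2 replicate 3, at adjusted p of 0.0966, 0.0796 and 0.0733. Among 20 genes of nitrate sensing and signalling 10 rose and 1 fell (median 0.31). The kinase CIPK23, which phosphorylates the nitrate transceptor NPF6.3, went from 6.87, 6.21 and 5.15 CPM to 13.6, 16.5 and 13.2 CPM (log2 fold change 1.25 with SE 0.14, edgeR adjusted p = 5.14e-06). The bZIP factor TGA1 (1.56, SE 0.21) and the NIN-like factors NLP8 (0.80, SE 0.13) and NLP9 (1.81, SE 0.30) rose too, while NRG2, a regulator of the nitrate response, was the member that fell (log2 fold change −0.61 with SE 0.17, edgeR adjusted p = 0.00709).

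Nitrate transport genes were mostly higher, with the vacuolar importer an exception. Of 26 listed genes 9 lay below the filter, and of the 17 tested 11 rose and 2 fell (median 0.82). CLC-A, the exchanger that loads nitrate into the vacuole, stood at 57.4, 50.9 and 39.2 CPM at day 0 and 15.1, 13.7 and 13.6 CPM at day 2 (log2 fold change −1.80 with SE 0.14, edgeR adjusted p = 3.55e-07). NPF2.13, which moves nitrate out of old leaves through the phloem, stood at 19.0, 17.4 and 12 CPM at day 0 and 44.1, 51.7 and 55.8 CPM at day 2 (log2 fold change 1.65 with SE 0.17, edgeR adjusted p = 4.03e-06). CLC-A was lower and NPF2.13 higher in every day 2 library than in any of day 0. The high-affinity carrier NRT2.5, known to be induced by starvation, had 3, 3 and 1 reads at day 0 and 67, 64 and 52 at day 2 (log2 fold change 4.43 with SE 0.81, edgeR adjusted p = 0.000443). The dual-affinity transceptor NPF6.3 (1.28, SE 0.16), the xylem carrier NPF7.3 (1.05, SE 0.21) and the tonoplast nitrate exporter NPF5.11 (1.47, SE 0.13) also rose. The other member that fell, NPF5.16 (log2 fold change −0.41 with SE 0.15, edgeR adjusted p = 0.0326), lost its call without any 1 of 5 mutant libraries (all but day 2 replicate 3), at adjusted p from 0.0596 to 0.082.

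The 4 other members of the NPF8 branch rose in the mutant (median 1.08). By TPM, a level per transcript length that the authors deposited, NPF8.1 went from a mean of 13.2 to 37.9 and NPF8.3 from 23.6 to 37.7, so their day 2 levels were close. NPF8.5 went from 7.25 to 12.9 TPM and NPF8.2 from 0.886 to 2.85 TPM. NPF8.1 and NPF8.2 are di- and tripeptide carriers of the plasma membrane, and NPF8.3 is one of the tonoplast. In CPM, NPF8.1 stood at 22.2, 21.3 and 15.7 CPM at day 0 and 57.0, 53.4 and 48.5 CPM at day 2 (log2 fold change 1.42 with SE 0.13, edgeR adjusted p = 1.52e-06). NPF8.3, the closest paralog of the mutated gene on chromosome 2, stood at 31.6, 32.1 and 33.2 CPM at day 0 and 49.7, 49.4 and 46.0 CPM at day 2 (log2 fold change 0.58 with SE 0.07, edgeR adjusted p = 1.05e-05). No day 2 library overlapped the day 0 libraries for these genes. A few reads of NPF8.3 and NPF8.4 may have been counted for the other, which was not tested.

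In the wider tonoplast list 19 of 38 genes were higher and 6 lower (median 0.28). The chloride exchanger CLC-C (1.32, SE 0.08), the potassium/proton exchanger NHX2 (1.59, SE 0.1), the conjugate pump ABCC2 (0.83, SE 0.08) and the proton pump subunit VHA-A2 (0.5, SE 0.06) rose. TDT, the dicarboxylate transporter that carries malate into the vacuole, went from 15.3, 15.1 and 8.57 CPM to 37.0, 35.9 and 25.6 CPM (log2 fold change 1.34 with SE 0.26, edgeR adjusted p = 0.000846). AVP1, the proton-pumping pyrophosphatase, went from 932, 1046 and 958 CPM to 580, 627 and 670 CPM (log2 fold change −0.65 with SE 0.11, edgeR adjusted p = 0.000173). For these proton pumps, VHA-A2 was above and AVP1 below in every day 2 library.

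Amino acid carriers rose widely. Of 22 tested genes 17 rose, 11 of them at least 2-fold, and 2 fell (median 1.04). The phloem carrier AAP2 stood at 5.41, 5.84 and 5.53 CPM at day 0 and 41.9, 27.7 and 24.1 CPM at day 2 (log2 fold change 2.48 with SE 0.23, edgeR adjusted p = 2.09e-06). AAP6, a carrier of the vascular parenchyma, stood at 42.4, 38.0 and 32.1 CPM at day 0 and 124, 113 and 106 CPM at day 2 (log2 fold change 1.61 with SE 0.12, edgeR adjusted p = 3.01e-07). Both were higher in each day 2 library than in any of day 0. The largest increases of the list, named after their values were seen, were those of AAP4 (3, SE 0.30) and of the exporter SIAR1 (4.50, SE 0.5). The GABA carrier GAT1 (1.34, SE 0.13), AAP7 (1.87, SE 0.19) and the apoplastic importer LHT1 (1.12, SE 0.26) followed, and the cationic carrier CAT6 fell (−1.31, SE 0.26, edgeR adjusted p = 0.000637).

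**Figure D2:**
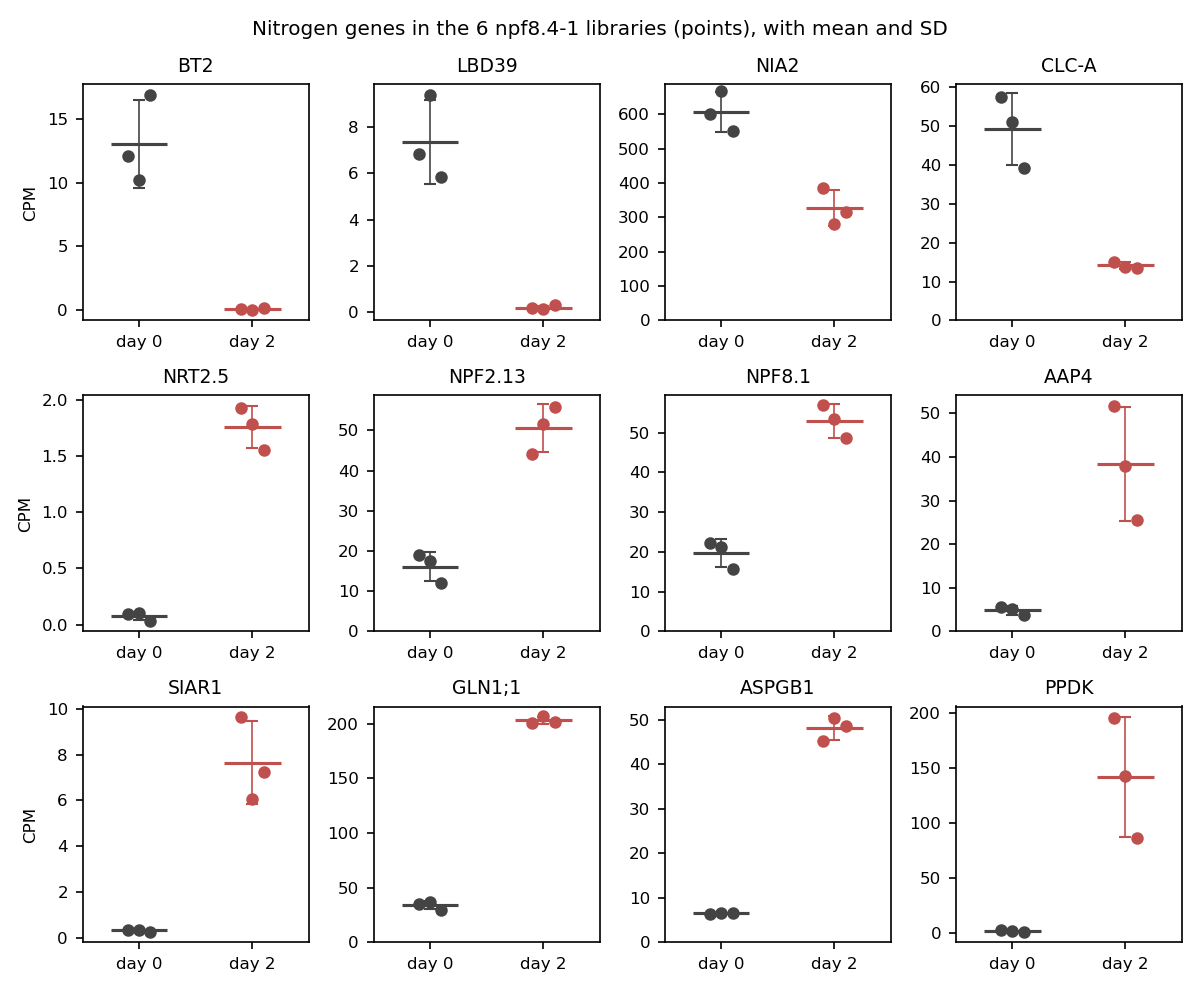
CPM of 12 nitrogen genes in each npf8.4-1 library at day 0 and day 2 (points, 3 per day), with the mean (horizontal bar) and SD (error bar) of the 3 libraries. BT2, LBD39, NIA2 and CLC-A are lower in every day 2 library, and the other 8 genes are higher in every day 2 library, with PPDK going from at most 3.09 CPM to at least 86.7 CPM.

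Nitrate reductase genes were lower, and the genes of ammonium reassimilation went both ways. Of 15 genes of nitrate and nitrite reduction and its molybdenum cofactor 8 fell and 3 rose (median −0.26), but 5 fell without day 0 replicate 2 or without day 2 replicate 2. NIA2, the main nitrate reductase, stood at 600, 667 and 550 CPM at day 0 and 385, 281 and 315 CPM at day 2 (log2 fold change −0.89 with SE 0.18, edgeR adjusted p = 0.000898). It was lower in every day 2 library. NIA1, the second nitrate reductase (log2 fold change −0.81 with SE 0.25, edgeR adjusted p = 0.0147), and the nitrite reductase NIR1 (log2 fold change −0.56 with SE 0.17, edgeR adjusted p = 0.0121) lost their calls without day 0 replicate 2, at adjusted p of 0.0641 and 0.0569, or without day 2 replicate 2, at 0.055 and 0.0515. The cofactor genes CNX7 (0.94, SE 0.09) and CNX2 (0.71, SE 0.17) rose.

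Ammonium assimilation and amide metabolism had 11 members higher and 5 lower among 20 (median 0.57). The cytosolic glutamine synthetase GLN1;1 stood at 34.8, 37.1 and 29.8 CPM at day 0 and 201, 207 and 202 CPM at day 2 (log2 fold change 2.59 with SE 0.1, edgeR adjusted p = 1.34e-08). GLN1;4 went from 11.2, 11.9 and 9.65 CPM to 53.4, 50.3 and 46.2 CPM (2.20, SE 0.11). These isoforms, known as the high-affinity forms, were several times higher in every day 2 library. GLN1;2 rose by less (0.47, SE 0.13) and GLN1;3, a low-affinity form, fell (−0.46, SE 0.11). The ammonium carriers AMT1;2 (2.62, SE 0.18) and AMT1;1 (0.88, SE 0.11) rose. Of the glutamate synthases, the ferredoxin form GLU1 rose (0.85, SE 0.12) and the NADH form GLT1 fell (−0.84, SE 0.1). The asparaginase ASPGB1, which releases ammonium from asparagine, went from 6.43, 6.58 and 6.53 CPM to 45.2, 50.4 and 48.6 CPM (2.88, SE 0.15), while the asparagine synthetase ASN2 fell (−0.52, SE 0.11). Both glutamate dehydrogenase genes, GDH1 (1.42, SE 0.15) and GDH2 (0.67, SE 0.11), rose. Adjusted p by edgeR reached at most 0.00658, for GLN1;2. ASN1 did not pass (log2 fold change −0.99 with SE 0.53, edgeR adjusted p = 0.13), with values of 12.2, 8 and 7.92 CPM at day 0 and 8.97, 3.22 and 1.98 CPM at day 2, and it passed as lower without day 2 replicate 1 at an adjusted p of 0.00616.

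Amino acid synthesis was lower more often than higher, and breakdown the reverse. Of 46 synthesis genes 24 fell and 11 rose (median −0.24). Both dihydrodipicolinate synthases of the lysine path, DHDPS1 (−1.40, SE 0.09) and DHDPS2 (−2.02, SE 0.1), fell, as did the histidine gene HISN2 (−2.03, SE 0.13) and the acetolactate synthase CSR1 (−0.79, SE 0.11). IPMI2, an isopropylmalate isomerase subunit that also serves methionine chain elongation for glucosinolates, went from 10.8, 10.9 and 8.99 CPM to 74.8, 65.8 and 60.2 CPM (2.70, SE 0.12), and the methionine path gene CGS1 rose (0.43, SE 0.08). In the phosphorylated serine pathway, which makes serine outside photorespiration, PGDH2 rose (2.21, SE 0.13) while PGDH1 (−1.39, SE 0.15) and PSAT2 (−1.30, SE 0.18) fell. Among 36 breakdown genes 25 rose and 3 fell (median 0.74). Allantoinase, ALN, went from 30.7, 25.1 and 22.1 CPM to 143, 117 and 107 CPM (log2 fold change 2.23 with SE 0.15, edgeR adjusted p = 1.19e-07). Its successor in purine breakdown, the allantoate amidohydrolase AAH, went from 8.65, 6.21 and 5.95 CPM to 45.3, 50.6 and 39.9 CPM (log2 fold change 2.70 with SE 0.17, edgeR adjusted p = 8.21e-08). Each day 2 library exceeded each day 0 library for both. The pyrimidine breakdown genes PYD1 (1.32, SE 0.09) and PYD2 (1.40, SE 0.1) rose, and the urea carrier DUR3 went from 0.604, 0.0675 and 0.138 CPM to 9.20, 7.23 and 3.39 CPM (log2 fold change 4.56 with SE 0.65, edgeR adjusted p = 9.06e-05). The proline dehydrogenase PRODH1 (−1.59, SE 0.22) and the xanthine dehydrogenase XDH2 (−0.75, SE 0.18) were among the 3 that fell.

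Genes for making ribosomes fell as a block. All 136 tested cytosolic ribosomal protein genes were lower at day 2, 133 of them at least 2-fold, with a median log2 fold change of −2.06 and a range from −3.65 to −0.51. The background share of genes lower at day 2 was 31.6%. The list of 146 was found by annotated name, and 10 members lay below the filter. Together they took 2.99%, 3.49% and 3.37% of the reads at day 0 and 0.741%, 0.767% and 1.01% at day 2. The 2 days did not overlap, and replicate 3 was the highest of the day 2 libraries. An exact permutation test of 3 against 3 cannot go below a two-sided p of 0.1. Reads of near-identical copies among these genes may be split between them, which touches single genes more than the sum. Fewer cells of a kind and less RNA per cell cannot be told apart in such bulk samples.

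Ribosome assembly and nucleolus genes fell in 24 of 25 cases (median −2.06), and the remaining member, EMB1220, did not pass (−0.14, SE 0.08, edgeR adjusted p = 0.134). NUC-L1, the main nucleolin, stood at 738, 972 and 869 CPM at day 0 and 149, 146 and 211 CPM at day 2 (log2 fold change −2.35 with SE 0.18, edgeR adjusted p = 2.84e-07). TOZ, a WD-repeat protein of the nucleolus, stood at 45.5, 47.6 and 42.5 CPM at day 0 and 10.1, 10.2 and 12.1 CPM at day 2 (log2 fold change −2.07 with SE 0.09, edgeR adjusted p = 1.58e-08). NRPA2, the second-largest subunit of RNA polymerase I, stood at 77.3, 82.8 and 82.9 CPM at day 0 and 16.4, 17.5 and 22.7 CPM at day 2 (log2 fold change −2.1 with SE 0.11, edgeR adjusted p = 3.58e-08). Each was lower in every day 2 library by more than 3 times. Both fibrillarin genes, FIB1 (−2.38, SE 0.14) and FIB2 (−2.90, SE 0.24), and the pseudouridine synthase NAP57 (−2.78, SE 0.22) fell. Of 27 tested ribosomal protein genes whose annotation mentions the chloroplast 23 fell and 2 rose (median −1.07). Those that rose, AT3G01170 and AT5G15260, are annotated to the L34e superfamily, as are 3 others of that list. RFC3, a plastid S6 protein, fell (−2.64, SE 0.22). Aminoacyl-tRNA synthetase genes, found by annotated name, were lower for 37 of 51 members and higher for 7 (median −0.80), with the lysyl enzyme ATKRS-1 at −1.66, SE 0.11 and the organellar methionyl enzyme OVA1 at −1.57, SE 0.11.

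Cell division genes moved with them. Of 42 genes 37 fell, 35 at least 2-fold, and 3 rose (median −1.66). The B-type cyclin CYCB1;1, of the entry into mitosis, stood at 11, 11 and 16.2 CPM at day 0 and 2.24, 2.52 and 3.95 CPM at day 2 (log2 fold change −2.14 with SE 0.30, edgeR adjusted p = 6.56e-05). The replication clamp PCNA1 stood at 29.6, 40.4 and 37.6 CPM at day 0 and 6.70, 8.21 and 11 CPM at day 2 (log2 fold change −2.06 with SE 0.22, edgeR adjusted p = 6.01e-06). The 2 days did not overlap for either gene, and replicate 3 was again the highest day 2 library. The helicase subunits MCM2 (−1.73, SE 0.17) and MCM6 (−1.77, SE 0.15), the ribonucleotide reductase RNR2A (−1.29, SE 0.09), the mitotic kinase CDKB2;1 (−1.52, SE 0.23) and the D-type cyclin CYCD3;1 (−1.05, SE 0.14) fell as well. The 3 genes that rose all encode inhibitors of cyclin-dependent kinases, namely SMR1 (log2 fold change 0.67 with SE 0.17, edgeR adjusted p = 0.00351), KRP1 (log2 fold change 0.59 with SE 0.14, edgeR adjusted p = 0.00313) and KRP2 (log2 fold change 0.41 with SE 0.14, edgeR adjusted p = 0.0234), of which KRP2 lost its call without day 0 replicate 1 or day 2 replicate 1, at adjusted p of 0.0947 and 0.118. Of 33 proteasome subunit genes, 26 fell, none by 2-fold (median −0.33), with the ATPase RPT6A at −0.82, SE 0.09, and PAA2 was the 1 that rose (0.31, SE 0.07).

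Promoters of these genes carry known growth motifs, and 5 are shown because their genes fell and hold a motif within 200 bases before the annotated start. The windows searched were the 250 bases before the start of 27431 protein-coding genes of the RefSeq annotation of TAIR10.1, on both strands. Site II (TGGGCC or TGGGCT), a motif of ribosomal protein and cell cycle promoters, stood in 66.4% of 146 cytosolic ribosomal protein windows, 63.0% of 27 nucleolus windows and 28.6% of 42 cell division windows, against 19.2% of all windows and 23.0% of those of tested genes. The telo-box (AAACCCTAA) stood in 9.59% of the ribosomal protein windows against 2.61% of all. Both motifs together stood in 8.22% against 0.806%. An E2F site (TTTGGCGC or TTTCCCGC) stood in 16.7% of the cell division windows, 7 of 42, against 0.959% of all. No E2F site was found in the ribosomal protein windows. A match describes letters and not binding. In the sequences below, capitals mark site II and the telo-box in the first 3 and the E2F site in the last 2, and each is written on the strand of its gene. A motif on the opposite strand appears as its reverse complement, as for 1 site II of AT5G16130 and the E2F site of MCM6. AT2G44860 and AT5G16130 are members, by annotated name, of the cytosolic ribosomal protein list, on the minus and plus strand (chr2:18502563-18502762 and chr5:5268221-5268420). TOZ lies on the minus strand (chr5:5509362-5509561), MCM6 on the minus strand (chr5:18010668-18010867) and MCM2 on the plus strand (chr1:16970014-16970213).
AT2G44860: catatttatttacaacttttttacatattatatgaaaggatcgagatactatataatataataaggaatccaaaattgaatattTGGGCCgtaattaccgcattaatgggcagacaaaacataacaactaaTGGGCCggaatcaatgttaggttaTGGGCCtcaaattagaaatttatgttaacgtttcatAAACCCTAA
AT5G16130: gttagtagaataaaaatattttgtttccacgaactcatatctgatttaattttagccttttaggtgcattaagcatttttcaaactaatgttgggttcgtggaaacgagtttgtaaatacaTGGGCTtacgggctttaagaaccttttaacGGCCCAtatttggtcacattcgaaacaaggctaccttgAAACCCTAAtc
TOZ: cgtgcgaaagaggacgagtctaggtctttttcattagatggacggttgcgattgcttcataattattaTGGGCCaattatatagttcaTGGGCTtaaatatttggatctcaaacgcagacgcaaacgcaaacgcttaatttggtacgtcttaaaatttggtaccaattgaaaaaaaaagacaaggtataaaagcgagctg
MCM6: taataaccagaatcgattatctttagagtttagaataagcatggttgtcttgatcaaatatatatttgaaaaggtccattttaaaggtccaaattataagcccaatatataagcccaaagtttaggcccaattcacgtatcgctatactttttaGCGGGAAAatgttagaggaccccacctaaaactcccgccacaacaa
MCM2: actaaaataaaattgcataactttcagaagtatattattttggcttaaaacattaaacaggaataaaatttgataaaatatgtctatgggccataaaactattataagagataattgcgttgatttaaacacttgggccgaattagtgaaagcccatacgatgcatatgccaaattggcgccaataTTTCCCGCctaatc

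The gene AT2G44860, whose window holds 3 site II motifs at 116, 69 and 45 bases before the start and a telo-box at 9, was at 88.9, 105 and 100 CPM at day 0 and 24.9, 19.9 and 27.2 CPM at day 2 (log2 fold change −2.03 with SE 0.12, edgeR adjusted p = 6.62e-08). AT5G16130, with site II at 79 and 49 bases and a telo-box at 11, was at 352, 417 and 381 CPM at day 0 and 72.6, 74.6 and 111 CPM at day 2 (log2 fold change −2.16 with SE 0.17, edgeR adjusted p = 3.39e-07). The window of TOZ holds site II at 132 and 112 bases, that of MCM6 an E2F site at 46 bases and that of MCM2 one at 14 bases. All 5 genes were lower in each day 2 library than in any day 0 library. They were picked as members with the smallest p whose 200 bases hold the motif and overlap no other annotated gene. AT1G58983 was left out of this choice by hand because it has near-identical copies.

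**Figure D3:**
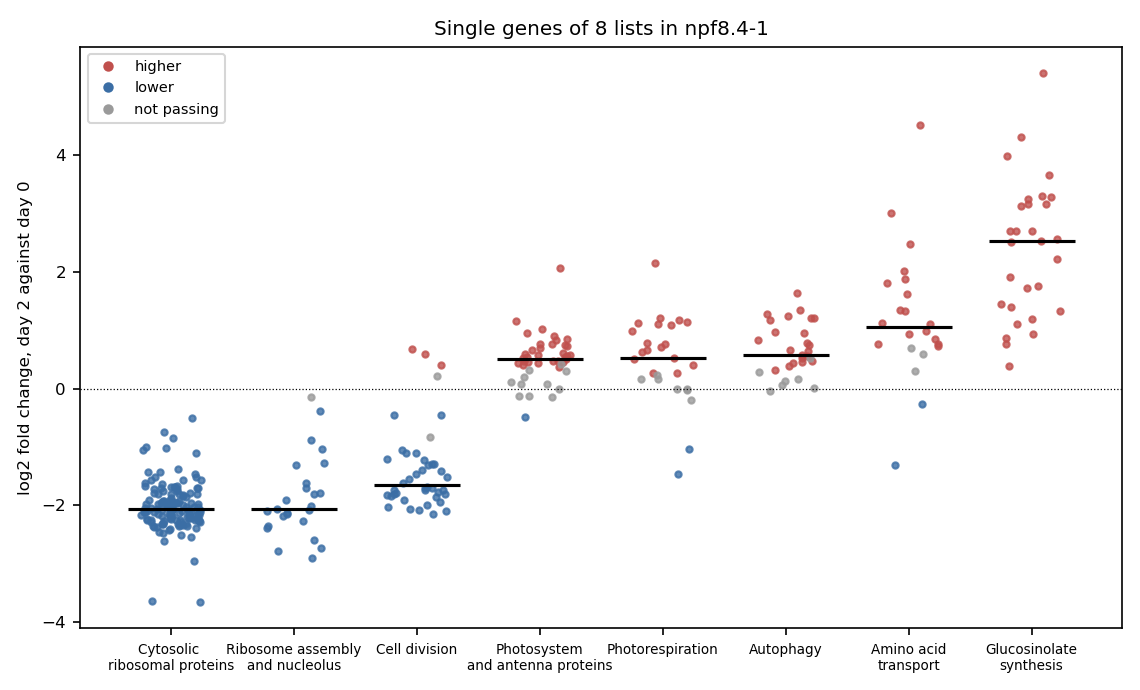
Log2 fold change at day 2 against day 0 in npf8.4-1 for each tested gene (points) of 8 lists, red where higher, blue where lower and grey where the edgeR test did not pass, with the list median as a bar. The ribosomal protein genes all lie below 0, at a median of −2.06, and the glucosinolate genes all above 0, at a median of 2.53, while photorespiration has members on both sides.

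Genes of the light reactions were mostly higher. Of 43 photosystem and antenna genes 31 rose, 3 of them at least 2-fold, and 1 fell (median 0.5). They took 12%, 13% and 11.1% of the reads at day 0 and 17.0%, 17.4% and 16.6% at day 2. LHCB4.3, a minor antenna protein of photosystem II, stood at 25.7, 30.1 and 15.6 CPM at day 0 and 107, 107 and 84.8 CPM at day 2 (log2 fold change 2.07 with SE 0.24, edgeR adjusted p = 2.37e-05). The oxygen-evolving complex subunit PSBQ-2 stood at 1929, 1792 and 1543 CPM at day 0 and 3643, 3577 and 3352 CPM at day 2 (log2 fold change 1.01 with SE 0.12, edgeR adjusted p = 7.69e-06). Neither gene overlapped between days. PSAN of photosystem I (0.83, SE 0.12) and the antenna proteins LHCA3 (0.76, SE 0.12), LHCB3 (0.60, SE 0.12) and LHCB5 (0.52, SE 0.11) rose too. The member that fell, LHCB1.1 (−0.49, SE 0.18), has near-identical copies, and its call ended without day 0 replicate 2, day 2 replicate 1 or day 2 replicate 2.

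The Calvin-Benson cycle had 4 members higher, 4 lower and 13 not passing among 21 (median 0.01). The regulator CP12-2 went from 107, 119 and 102 CPM to 237, 225 and 194 CPM (log2 fold change 1 with SE 0.11, edgeR adjusted p = 6.93e-06) and phosphoribulokinase, PRK, rose as well (log2 fold change 0.52 with SE 0.1, edgeR adjusted p = 0.000522). The Rubisco small subunit gene RBCS1B fell, from 1903, 2677 and 1615 CPM to 1005, 929 and 971 CPM (log2 fold change −1.09 with SE 0.17, edgeR adjusted p = 8.64e-05), with the reads of RBCS copies hard to separate. RPI3, a ribose-5-phosphate isomerase, fell too (log2 fold change −0.77 with SE 0.14, edgeR adjusted p = 0.000294). Of the 4 genes that fell, 2 did so without day 0 replicate 2 or without either of the first 2 day 2 replicates, and 7 rose when libraries were scaled by their totals alone.

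Photorespiration recycles the product of Rubisco's oxygenation through the peroxisome and mitochondrion to glycerate, and releases ammonium on the way. Of 27 genes 18 rose and 2 fell (median 0.52), and together they took 1.5%, 1.41% and 1.37% of the reads at day 0 and 2.64%, 2.51% and 2.32% at day 2. BASS6, a glycolate transporter of the chloroplast envelope, stood at 4.07, 3.81 and 3.84 CPM at day 0 and 19.2, 17.9 and 14.5 CPM at day 2 (log2 fold change 2.14 with SE 0.13, edgeR adjusted p = 6.25e-08). Of the glycine decarboxylase, the subunit GLDP1 stood at 1206, 1149 and 1021 CPM at day 0 and 2730, 2643 and 2383 CPM at day 2 (log2 fold change 1.2 with SE 0.11, edgeR adjusted p = 9.34e-07). The glutamate:glyoxylate aminotransferase GGT1 stood at 1314, 1182 and 1055 CPM at day 0 and 2898, 2392 and 2304 CPM at day 2 (log2 fold change 1.1 with SE 0.13, edgeR adjusted p = 1.18e-05). Every day 2 library exceeded every day 0 library in these genes. PLGG1, the glycolate/glycerate exchanger of the chloroplast, rose (log2 fold change 0.51 with SE 0.14, edgeR adjusted p = 0.00555), as did the serine hydroxymethyltransferase SHM1 (0.99, SE 0.13), the peroxisomal malate dehydrogenase PMDH2 (1.18, SE 0.11), the glycolate oxidase GOX1 (0.78, SE 0.11), the serine:glyoxylate aminotransferase AGT (0.76, SE 0.12) and the hydroxypyruvate reductase HPR (0.71, SE 0.1), whose product is glycerate. The glycerate kinase GLYK, which returns glycerate to the Calvin-Benson cycle, stood at 258, 236 and 215 CPM at day 0 and 255, 276 and 268 CPM at day 2 and did not pass (log2 fold change 0.17 with SE 0.1, edgeR adjusted p = 0.132), although it passed when libraries were scaled by their totals alone, at 0.0356. The members that fell were LPD1, the dihydrolipoyl dehydrogenase of the plastid pyruvate dehydrogenase complex (log2 fold change −1.47 with SE 0.12, edgeR adjusted p = 4.08e-07), and DIT1, which imports 2-oxoglutarate into the chloroplast for ammonium reassimilation (log2 fold change −1.03 with SE 0.15, edgeR adjusted p = 4.85e-05). LPD1 was counted in the list although that complex is not part of the photorespiratory path described above.

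Genes of both starch synthesis and starch breakdown were higher or did not pass. Of 16 synthesis genes 9 rose (median 0.40) and of 18 breakdown genes 13 rose (median 0.58), with none lower in either, and 1 lower in each without day 2 replicate 3. The granule-bound starch synthase GBSS1 stood at 57.5, 46.0 and 36.3 CPM at day 0 and 197, 178 and 160 CPM at day 2 (log2 fold change 1.94 with SE 0.16, edgeR adjusted p = 6.32e-07). The glucan phosphatase SEX4 stood at 63.4, 58.5 and 73.7 CPM at day 0 and 150, 171 and 177 CPM at day 2 (log2 fold change 1.35 with SE 0.1, edgeR adjusted p = 3.02e-07). Both were higher in every day 2 library. The ADP-glucose pyrophosphorylase subunit APL3 (1.26, SE 0.09), the glucanotransferase DPE2 (1.18, SE 0.09) and the glucan dikinase GWD2 (2.83, SE 0.27) also rose.

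Genes of sucrose export and inositol synthesis were among those higher. In the sucrose and trehalose phosphate list 17 of 33 genes were higher and 7 lower (median 0.43). SWEET12, an exporter of sucrose towards the phloem, stood at 5.76, 3.48 and 3.15 CPM at day 0 and 37.8, 33.5 and 26.1 CPM at day 2 (log2 fold change 2.97 with SE 0.23, edgeR adjusted p = 6.01e-07). Its partner SWEET11 (1.69, SE 0.20) and the phloem loader SUC2 (1.53, SE 0.17) rose, as did the sucrose phosphatase SPP2 (1.41, SE 0.08) and the trehalose phosphate genes TPS5 (1.60, SE 0.09) and TPPE (2.1, SE 0.15). Of the raffinose list 7 of 10 rose and 2 fell. All 3 inositol phosphate synthases, MIPS1 (1.67, SE 0.12), MIPS2 (2.39, SE 0.14) and MIPS3 (1.93, SE 0.15), were among those higher, and the members that fell were SIP2, a raffinose alpha-galactosidase (−1.96, SE 0.19), and DIN10. Among them the edgeR adjusted p went up to 0.000167, for DIN10.

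Among genes of organic acids and 2-oxoglutarate supply 12 of 26 rose and 7 fell (median 0.1). PPDK, pyruvate orthophosphate dikinase, which serves nitrogen export from ageing leaves, stood at 3.09, 2.09 and 1.52 CPM at day 0 and 196, 143 and 86.7 CPM at day 2 (log2 fold change 5.98 with SE 0.44, edgeR adjusted p = 1.25e-06). Its rise was the steepest of the list, and replicate 3 was the lowest of the day 2 libraries. The fumarase FUM2 (1.23, SE 0.22), the malic enzyme NADP-ME2 (1.41, SE 0.08) and the peroxisomal citrate synthase CSY3 (0.94, SE 0.08) rose. Of the phosphoenolpyruvate carboxylases PPC1 rose (0.49, SE 0.08) and PPC2 fell (−0.55, SE 0.11), and the kinase that activates them, PPCK1, fell (−1.25, SE 0.14), as did the cytosolic isocitrate dehydrogenase CICDH (−0.31, SE 0.08). In alternative respiration 6 of 9 genes rose and 3 fell, with the alternative oxidase AOX1A going from 24.5, 20.6 and 24.1 CPM to 71.8, 79.5 and 75.3 CPM (log2 fold change 1.71 with SE 0.08, edgeR adjusted p = 2.25e-08) and the dehydrogenases NDA2 (2.1, SE 0.14) and NDB2 (2.15, SE 0.18) higher.

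Glucosinolates are sulfur- and nitrogen-bearing defence compounds of the cabbage family, built from methionine or tryptophan. All 29 tested synthesis genes rose, 25 at least 2-fold, with a median of 2.53 and a range from 0.39 to 5.39. Together they took 0.135%, 0.123% and 0.118% of the reads at day 0 and 0.445%, 0.436% and 0.387% at day 2. The 2 days did not overlap. For the aliphatic branch, the aldoxime enzyme CYP79F1 stood at 19.6, 15.9 and 9.99 CPM at day 0 and 273, 241 and 205 CPM at day 2 (log2 fold change 3.98 with SE 0.24, edgeR adjusted p = 1.14e-07). BCAT4, which starts methionine chain elongation, stood at 14.2, 6.85 and 6.19 CPM at day 0 and 216, 185 and 138 CPM at day 2 (log2 fold change 4.30 with SE 0.35, edgeR adjusted p = 1.57e-06). Both lay more than 9 times higher in each day 2 library than in any day 0 library. CYP79F2, a near copy of CYP79F1 with few reads, followed (5.39, SE 0.60), then the S-oxygenase FMOGS-OX3 (3.30, SE 0.13) and CYP83A1 (2.55, SE 0.15). For the indole branch, the tryptophan enzymes CYP79B2 (2.50, SE 0.17) and CYP79B3 (2.22, SE 0.19) and CYP83B1 (1.44, SE 0.09) rose too. The shared late genes SUR1 (1.33, SE 0.08), UGT74B1 (1.19, SE 0.1) and SOT18 (1.90, SE 0.1) also rose. Of the regulators, MYB28 (1.69, SE 0.15) and MYB29 (2.03, SE 0.19) of the aliphatic branch and MYB51 (2.33, SE 0.42) and MYB34 (0.7, SE 0.11) of the indole branch rose, while SDI2, a repressor of the aliphatic branch induced by sulfur deficiency, fell (−1.85, SE 0.37). The edgeR adjusted p of these genes did not exceed 0.00114, for SDI2.

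**Figure D4:**
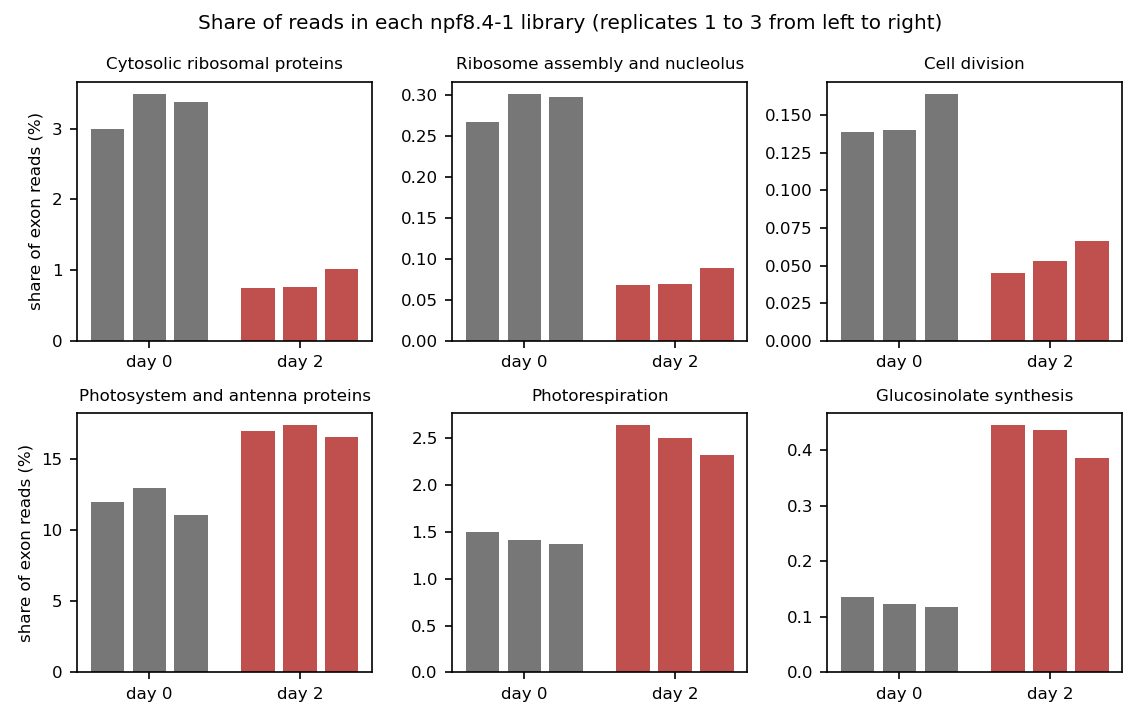
Share of all exon reads, in percent, taken by 6 gene lists in each npf8.4-1 library, with replicates 1 to 3 of each day from left to right and no error bars because each bar is 1 library. Cytosolic ribosomal proteins go from at least 2.99% to at most 1.01% of the reads, and photosystem and antenna proteins from at most 13% to at least 16.6%.

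The counts in the sulfate, phosphate and iron lists stand beside the 64.1% of all tested genes that changed. In sulfate assimilation and starvation 12 of 27 genes were higher and 5 lower (median 0.26). The kinases APK1 (2.13, SE 0.17) and APK2 (2.58, SE 0.18), which make the sulfate donor for glucosinolates, and the carriers SULTR3;1 (2.11, SE 0.1) and SULTR2;1 (1.68, SE 0.16) rose. The key members APR1 (0.59, SE 0.30), APR2 (−0.21, SE 0.23), APR3 (−0.65, SE 0.31) and BGLU28 (0.31, SE 0.24) did not pass. Their edgeR adjusted p ran from 0.0868 to 0.435. Of the family induced by low sulfur LSU2 fell (−0.91, SE 0.24), LSU4 rose (2, SE 0.40), and LSU1 (0.25, SE 0.65) and LSU3 (−0.24, SE 0.65) did not pass, at edgeR adjusted p of 0.753 and 0.759. Of 22 listed genes of the response to low phosphate 18 were tested, of which 12 were higher and 1 lower (median 0.73). The key member SPX3, with 0, 1 and 0 reads at day 0 and 3, 3 and 2 at day 2, lay below the filter. So did IPS1 and PHT1;1, with 0 reads in all 6 mutant libraries. PHO2, the ubiquitin conjugase that lowers phosphate uptake (1.68, SE 0.11), the xylem exporter PHO1 (1.45, SE 0.14), the galactolipid synthases MGD2 (1.68, SE 0.19) and MGD3 (1.55, SE 0.23) and the sensor SPX1 (0.88, SE 0.18) rose, and SQD1, of sulfolipid synthesis, fell (−0.49, SE 0.07). In the iron list 10 of 20 rose and 5 fell, 3 without day 0 replicate 1 or day 2 replicate 1, with the metal-chelate carrier YSL1 (1.31, SE 0.14) and the chloroplast ferric reductase FRO7 (1.78, SE 0.29) higher. By edgeR the highest adjusted p of the genes named here that passed was 0.00562, for LSU2.

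The MYB regulators of anthocyanin synthesis PAP2 and PAP1 had 2 of the 3 largest log2 fold changes of their list. In the flavonoid and anthocyanin list 16 of 29 genes were higher and 2 lower (median 0.48). PAP2, a MYB activator of anthocyanin synthesis, stood at 0.159, 0.101 and 0.0346 CPM at day 0 and 4.97, 4.09 and 2.94 CPM at day 2 (log2 fold change 5.27 with SE 0.49, edgeR adjusted p = 1.36e-06). Its relative PAP1 stood at 6.17, 3.61 and 4.36 CPM at day 0 and 24.9, 22.8 and 20 CPM at day 2 (log2 fold change 2.26 with SE 0.21, edgeR adjusted p = 1.23e-06). Both were higher in every day 2 library, PAP2 from nearly no reads. The bHLH partner TT8 (1.80, SE 0.30) and the phenylalanine lyase PAL1 (0.44, SE 0.11) rose. Dihydroflavonol reductase, DFR, went from 5.12, 1.72 and 1.59 CPM to 8.33, 7.42 and 8 CPM (log2 fold change 1.48 with SE 0.43, edgeR adjusted p = 0.0101), with replicate 1 the highest of day 0. The enzymes CHI (0.11, SE 0.13) and LDOX (0.91, SE 0.43) did not pass, at edgeR adjusted p of 0.494 and 0.087, although LDOX passed without day 0 replicate 1 at 0.0136, by DESeq2 at 0.0373 and in a fit of the 6 mutant libraries alone at 0.0432. Nor did the key members TT7 (0.49, SE 0.25), FLS1 (0.27, SE 0.13) and GL3 (−0.74, SE 0.49), at edgeR adjusted p of 0.102, 0.0775 and 0.198. The key member MYB111 fell (log2 fold change −0.58 with SE 0.24, edgeR adjusted p = 0.0455).

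Genes of recycling were higher more often than lower. Of 29 autophagy genes, 22 rose and none fell (median 0.57). ATG8A, a ubiquitin-like protein that coats the autophagosome, stood at 12.2, 10.2 and 11.4 CPM at day 0 and 35.1, 38.0 and 32.3 CPM at day 2 (log2 fold change 1.64 with SE 0.12, edgeR adjusted p = 1.64e-07). ATG8I (1.35, SE 0.09), ATG8F (1.27, SE 0.13) and ATG8H (1.24, SE 0.17) followed, and the cargo receptor NBR1 rose by less (0.38, SE 0.08). Of 20 vacuolar and senescence proteases 11 rose and 2 fell (median 0.61), the latter 0 or 1 without any 1 of 5 mutant libraries. The vacuolar processing enzyme GAMMA-VPE stood at 54.3, 56.0 and 53.9 CPM at day 0 and 317, 247 and 220 CPM at day 2 (log2 fold change 2.26 with SE 0.17, edgeR adjusted p = 2.51e-07). The cysteine proteases AALP (1.65, SE 0.11) and RD21A (0.97, SE 0.1) and the plastid chaperone subunit CLPD (2.26, SE 0.15) rose. In the senescence and chlorophyll breakdown list 13 of 21 rose and 1 fell (median 0.76). The chlorophyll breakdown enzymes PAO (0.76, SE 0.07) and PPH (0.98, SE 0.11) and the Mg-dechelatase SGR1 (1.01, SE 0.14) rose. NAP, a NAC factor of leaf senescence, went from 8.46, 5.74 and 7.12 CPM to 86.8, 53.5 and 40.7 CPM (log2 fold change 3.08 with SE 0.48, edgeR adjusted p = 0.000281). ORE1, another such factor, had 2 reads over the day 0 libraries and 194 over those of day 2, a ratio of 84.0 with a 95% counting interval from 23.0 to 699. All day 2 libraries were above all day 0 libraries for these genes, and replicate 1 was the highest of day 2 for NAP. The member that fell was PES1, which forms phytyl esters (−1.09, SE 0.20). WRKY53 (0.43, SE 0.49) and NYC1 (0.19, SE 0.11) of the senescence list did not pass, at edgeR adjusted p of 0.462 and 0.133. SAG12, a key member of that list, had 0 reads in all 6 mutant libraries and lay below the filter. For the genes named here that passed, no edgeR adjusted p exceeded 0.00105, for NBR1.

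Of 24 listed genes of salicylate signalling and immunity 19 were tested. Of these 15 rose, 4 did not pass and none fell (median 0.94). PR1 lay below the filter, with 0 reads in each day 0 library and 0, 2 and 0 reads at day 2. WRKY70 stood at 73.3, 40.1 and 51.7 CPM at day 0 and 251, 200 and 213 CPM at day 2 (log2 fold change 2.01 with SE 0.26, edgeR adjusted p = 4.58e-05). PR5, a pathogenesis-related thaumatin-like protein, stood at 4.80, 4.35 and 2.59 CPM at day 0 and 12.7, 23.8 and 14.6 CPM at day 2 (log2 fold change 2.12 with SE 0.28, edgeR adjusted p = 4.64e-05). The groups did not overlap for either gene. PCC1, a gene of defence and the clock, stood at 9.32, 0.405 and 0.346 CPM at day 0 and 119, 161 and 104 CPM at day 2 (log2 fold change 5.23 with SE 1.08, edgeR adjusted p = 0.00245), with day 0 replicate 1 more than 20 times above the other day 0 libraries. WRKY54 (2.62, SE 0.19), PBS3, which conjugates salicylate precursors (1.93, SE 0.17), PAD4 (1.18, SE 0.22) and the salicylate receptor NPR1 (0.49, SE 0.1) rose. Of 29 jasmonate genes, 18 were higher and 1 lower (median 0.59), with 11 higher without day 0 replicate 2, day 0 replicate 3 or day 2 replicate 1. JAZ10, a repressor of the pathway, fell (log2 fold change −1.21 with SE 0.17, edgeR adjusted p = 3.83e-05), while the synthesis genes AOS (0.90, SE 0.15) and AOC4 (1.36, SE 0.09) and the conjugating enzyme JAR1 (0.82, SE 0.08) rose. The lipoxygenase LOX2 (0.43, SE 0.20) and the factor MYC2 (0.41, SE 0.22) did not pass, at edgeR adjusted p of 0.079 and 0.114, MYC2 passing at 0.0302 in a fit of the 6 mutant libraries alone. Of the storage protein genes that jasmonate induces, VSP1 stood at 110, 7.42 and 7.23 CPM at day 0 and 9.63, 8.4 and 7.04 CPM at day 2 (log2 fold change −2.32 with SE 1.15, edgeR adjusted p = 0.107). VSP2 stood at 369, 48.1 and 48.3 CPM at day 0 and 307, 213 and 191 CPM at day 2 (log2 fold change 0.61 with SE 0.80, edgeR adjusted p = 0.53). Neither passed, and day 0 replicate 1 stood far above the other day 0 libraries for both. Without that library LOX2 (0.74) and VSP2 (2.3) were higher by edgeR, at adjusted p of 0.00194 and 0.00433, and VSP1 was at 0.19.

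Of 34 abscisic acid and cold genes, 22 were higher at day 2 and none lower (median 0.92). The bZIP factor ABF3 stood at 15.9, 13.3 and 13.7 CPM at day 0 and 73.0, 66.7 and 59.4 CPM at day 2 (log2 fold change 2.21 with SE 0.11, edgeR adjusted p = 2.97e-08). The dehydrin RAB18 stood at 4.04, 4.49 and 3.87 CPM at day 0 and 17.8, 15.5 and 16.8 CPM at day 2 (log2 fold change 2.02 with SE 0.18, edgeR adjusted p = 9.58e-07). Both were several times higher in every day 2 library, and the phosphatase ABI1 (1.30, SE 0.11) and RD22 (1.42, SE 0.11) rose with them. The G-box (CACGTG) stood in 14.3% of 35 windows of that list and in 20.9% of 43 photosystem windows, against 6.49% of all windows. Of 15 ethylene genes, 11 rose, among them the receptor ERS1 (1.26, SE 0.13) and the F-box protein gene EBF2 (1.27, SE 0.08).

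Of 35 cytokinin genes 14 were higher and 10 lower (median 0.16), beside 32.5% and 31.6% of all tested genes. The response regulators that cytokinin is known to induce went both ways. Of these ARR4 (−1.1, SE 0.12), ARR6 (−1.90, SE 0.36), ARR7 (−1.78, SE 0.24) and ARR15 (−1.01, SE 0.32) fell, ARR16 (1.72, SE 0.28) and ARR9 (0.69, SE 0.27) rose, and ARR5 (0.17, SE 0.61) and ARR8 (0.06, SE 0.15) did not pass, at edgeR adjusted p of 0.822 and 0.762. ARR15 did not pass without day 0 replicate 1 or day 2 replicate 1, nor ARR9 without day 0 replicate 2 or 3 or day 2 replicate 1 or 2 or with no filter on low counts. The receptor AHK4 fell (−1.64, SE 0.12), while the phosphotransfer genes AHP4 and AHP5 (1.61, SE 0.17) rose. Of 35 auxin response genes 22 rose and 1 fell (median 0.72). SAUR24 stood at 1.88, 0.709 and 0.691 CPM at day 0 and 6.32, 4.31 and 4.40 CPM at day 2 (log2 fold change 2.18 with SE 0.33, edgeR adjusted p = 7.4e-05). It is one of a tandem family of growth-related genes whose similar copies can share reads. The repressors IAA16 (1.02, SE 0.13) and IAA28 (1.26, SE 0.14) rose too. The gibberellin synthesis gene GA3OX1 fell (−2.26, SE 0.31), and of 39 expansin and xyloglucan genes 11 rose and 10 fell (median 0.15). Adjusted p by edgeR reached at most 0.041, for ARR9.

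Of the long-distance nitrogen signalling list, where peptides from starved roots act through shoot glutaredoxins, 3 of 5 genes rose and 1 fell, the latter count being 0 without any of 4 single libraries. The receptor CEPR1 went from 26.8, 25.6 and 19.4 CPM to 79.5, 68.5 and 68.6 CPM (log2 fold change 1.59 with SE 0.12, edgeR adjusted p = 3.01e-07) and the shoot signal CEPD2 went from 16.6, 16.8 and 12.3 CPM to 39.6, 39.4 and 35.9 CPM (log2 fold change 1.33 with SE 0.16, edgeR adjusted p = 1.34e-05). Each was higher in every day 2 library. Of 15 CC-type glutaredoxins 9 fell and 3 rose (median −1.17), with GRXS10 going from 3.34, 3.04 and 1.76 CPM to 0.259, 0.140 and 0.0899 CPM (log2 fold change −4.02 with SE 0.40, edgeR adjusted p = 2.49e-06). The members in tandem on chromosome 4 are near-identical, so their single counts are uncertain.

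In the low energy list 8 of 21 genes fell and 6 rose (median −0.46), beside 31.6% lower and 32.5% higher over all tested genes. The factors BZIP11, which sucrose represses in translation (−1.95, SE 0.20), and BZIP1 (−1.46, SE 0.17) and the dormancy gene DRM1 (−1.95, SE 0.25) fell. SEN1, also of the senescence list, was among those that rose (log2 fold change 2.06 with SE 0.50, edgeR adjusted p = 0.00398). It went from 2.16, 1.69 and 2.18 CPM to 15.7, 5.55 and 3.92 CPM. Of 22 clock genes 12 rose and 5 fell (median 0.34), 8 without day 2 replicate 3 and 3 without day 0 replicate 3. The evening genes ELF3, from 42.8, 52.4 and 64.2 CPM to 18.7, 18.3 and 26.4 CPM (log2 fold change −1.33 with SE 0.24, edgeR adjusted p = 0.000471), and LUX, from 11.5, 15.7 and 27.9 CPM to 3.36, 3.84 and 5.54 CPM (log2 fold change −2.11 with SE 0.41, edgeR adjusted p = 0.000954), were lower in every day 2 library, and TOC1 fell with them (−1.23, SE 0.25). The morning gene LHY was at 5.28, 3.41 and 1.56 CPM at day 0 and 16.2, 13.1 and 7.31 CPM at day 2 (log2 fold change 1.83 with SE 0.52, edgeR adjusted p = 0.00962), and CCA1 was also higher (1.30, SE 0.38, edgeR adjusted p = 0.0118). For LUX, replicate 3 was the highest library of each day, and for LHY it was the lowest of each day. The labels do not give the hour of harvest, and its part in these values was not tested.

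Touch, calcium and wounding genes had 3 of 20 members higher, 3 lower and 14 not passing (median 0.22). TCH4, a touch-induced xyloglucan enzyme, stood at 516, 411 and 628 CPM at day 0 and 249, 146 and 256 CPM at day 2 (log2 fold change −1.26 with SE 0.37, edgeR adjusted p = 0.0123), lower in every day 2 library. ZAT6, a zinc finger factor, rose (log2 fold change 2.34 with SE 0.51, edgeR adjusted p = 0.00259), at 10.3, 10 and 9.37 CPM at day 0 and 76.8, 47.4 and 26.4 CPM at day 2. The count of members lower was 1 without day 0 replicate 1 or 3 or day 2 replicate 2 or 3, and 6 rose by DESeq2 or in a fit of the 6 mutant libraries alone. Of 23 protein folding genes, 10 were lower and 1 higher (median −0.37), with the endoplasmic reticulum chaperones BIP2 (−1.39, SE 0.16), BIP1 (−1.08, SE 0.15) and CRT1A (−1.12, SE 0.14) and the cytosolic HSP70-1 (−1.38, SE 0.18) lower.

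Most tested WRKY genes, 22 of 40, were called in neither direction, while 12 were higher and 6 lower at day 2 (median 0.22). The shares to set beside this list and the next ones are the 32.5% higher and 31.6% lower of all tested genes. WRKY2 (0.63, SE 0.11) and WRKY19 (0.89, SE 0.09) rose beside WRKY54 and WRKY70. In lipid turnover 10 of 24 rose and 4 fell, with the peroxisomal genes LACS7 (1.61, SE 0.14) and MFP2 (0.59, SE 0.07) and the acyltransferase PDAT1 (0.90, SE 0.08) higher. Of 18 flowering genes, 9 were higher and 3 lower (median 0.36). FD, the bZIP partner of florigen, went from 2.70, 1.86 and 2.63 CPM to 13.1, 10.7 and 10.3 CPM (log2 fold change 2.24 with SE 0.19, edgeR adjusted p = 6.65e-07), and the integrator SOC1 rose (0.7, SE 0.13), as did the repressor SVP (0.64, SE 0.08). The gibberellin and brassinosteroid list had 10 of 25 genes higher and 3 lower, with the brassinosteroid factor BES1 at 1, SE 0.1. Among them the edgeR adjusted p went up to 0.00043, for SOC1.

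Cell type markers moved beside these groups. Of 17 vascular markers, 10 were higher and 1 lower (median 0.43), and the whole list took 0.0505%, 0.0443% and 0.0404% of the reads at day 0 and 0.1%, 0.0965% and 0.0877% at day 2. The companion cell proton pump AHA3 (1.39, SE 0.16) and the phloem genes SUC2, SWEET11 and SWEET12 were among those higher. Stomatal and epidermal markers were split, with 7 of 19 higher and 8 lower (median −0.18), and took 0.120%, 0.128% and 0.140% of the reads at day 0 and 0.0865%, 0.0907% and 0.0992% at day 2. The guard cell anion channel SLAC1 rose (1.79, SE 0.15) while TMM, a receptor of the stomatal lineage (−0.83, SE 0.13), and PDF1, of the young epidermis (−2.05, SE 0.27), fell. Young leaf and mesophyll markers took 5.33%, 5.87% and 4.80% of the reads at day 0 and 5.40%, 5.50% and 5.54% at day 2, and their days overlapped. Of 7 root markers tested 1 rose and 1 fell, and of 3 meristem and flower markers 2 rose. The part of these marker changes in the carrier, cell division and sugar export results was not tested.

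The same contrast in Col-0, with its own day 0 libraries, gave a like response for most genes. In Col-0 29.6% of the 19416 tested genes were higher and 30.4% lower at day 2, so that 60% changed. Of the 12444 genes called in npf8.4-1, 81.3% were called in the same direction in Col-0, and of the 11659 called in Col-0, 86.8% were called the same way in the mutant. Those shared calls numbered 10115, and 25 genes were called in opposite directions. Across the 19416 genes, which are not independent, the log2 fold changes had a Pearson r of 0.907, and their median size was 0.54 in the mutant and 0.49 in Col-0.

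The test of the difference between the genotypes' changes called 0 genes by edgeR at an adjusted p of 0.05. Before adjustment 1759 genes (9.06%) had p under 0.05, and the smallest adjusted p was 0.17. DESeq2 called 269, of which 56 had a larger and 213 a smaller value in npf8.4-1. The genes with the smallest p were AT5G25170, at a log2 fold change of −0.41 in npf8.4-1 and 0.78 in the reference accession, and the calcium-dependent kinase CPK4, at −0.28 and 0.80. The amino acid carrier AAP5 was at 0.73 in npf8.4-1 and 2.02 in Col-0. Each had an edgeR adjusted p of 0.17 for the difference and so did not pass.

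The 5 lists described here, picked after these values were seen, are read by their counts at an unadjusted p under 0.05. Over all tested genes 4.77% reached it with a larger value in npf8.4-1 and 4.29% with a smaller one. In the touch, calcium and wounding list 13 of 20 genes reached it, each with a smaller value in npf8.4-1 than in Col-0, where 18 of 20 were higher at day 2 (median 1.42 against 0.22). TCH4 was at −1.26 in npf8.4-1 and 0.80 in Col-0. In the salicylate list 9 of 19 reached it, each smaller in npf8.4-1 (median 0.94 against 1.86), with PAD4 at 1.18 and 2.50. Glucosinolate synthesis had 13 of 29 and auxin response 12 of 35, each larger in npf8.4-1, with list medians of 2.53 against 2.02 and 0.72 against 0.28. CYP79F1 was at 3.98 in npf8.4-1 and 3.28 in Col-0, and SAUR24 at 2.18 and 0.84. Of the nitrate-induced regulators 7 of 12 reached it, 6 with a smaller and 1 with a larger value in npf8.4-1. Among the 6 were BT2 (−8.27 against −4.76), BT5 (−1.68 against −0.75) and HHO3 (−1.17 against 0.16). NIA2 was at −0.89 in npf8.4-1 and 0.1 in Col-0. None of these differences passed by edgeR after adjustment, whereas DESeq2 called those of TCH4, PAD4, BT2, BT5, HHO3 and NIA2. For the 136 cytosolic ribosomal protein, 27 photorespiration and 43 photosystem genes no member reached an unadjusted p under 0.05 for the difference.

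**Figure D5:**
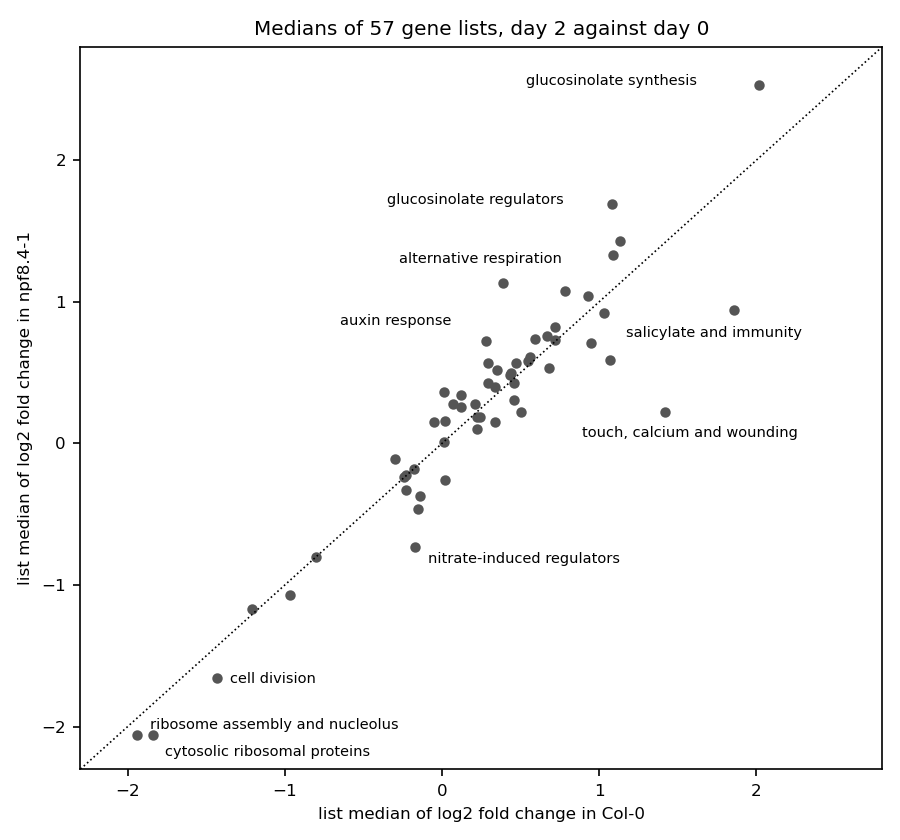
Median log2 fold change at day 2 against day 0 of each of 57 gene lists in Col-0 (horizontal) and npf8.4-1 (vertical), 1 point per list, with the line of equal values dotted. Most lists lie near the line, while the touch, calcium and wounding list lies at 0.22 in npf8.4-1 against 1.42 in Col-0 and the auxin response list at 0.72 against 0.28.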

How the data were processed

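RNA of 12 libraries was sequenced by the submitters, who used the TruSeq Stranded mRNA kit per the labels' protocols. Per the submitters' processing notes, bcl2fastq 2.17.1.14 and the build TAIR10 were used. Neither labels nor file headers name an aligner, counter, strand setting or annotation (not given in the sources used here), so reads of overlapping antisense genes could not be told apart. The authors deposited for each library and for 37242 genes the raw count of exon reads, used for all tests, and TPM values, used to compare levels between genes.

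Counts of all 12 libraries were fitted in 4 groups with edgeR 4.0.16 in R 4.3.3 (limma 3.58.1), using TMM scaling, the filterByExpr filter, which kept 19416 genes, the robust quasi-likelihood test and Benjamini-Hochberg adjustment over all kept genes at 0.05. SE is the log2 fold change divided by the square root of the F statistic. CPM values are scaled by TMM. DESeq2 1.42.0, other scalings and filters, a fit of 6 libraries, a replicate block and fits without each library in turn were alternatives. On simulated counts of 19180 genes for this contrast, the test recovered 50.7%, 73.1% and 92.4% of genes changed 1.5-fold, 2-fold and 4-fold, and called 9 unchanged genes. Only 200 genes were changed in the simulation, far fewer than were called in the real libraries, and its counts were drawn from the fitted model. These shares therefore do not give the recovery or the false calls of the real contrast. Counting intervals are exact at 95% and, like the bound at 3 counts, cover counting error only. No 2 libraries of the same group were duplicates by a chi-square check of their counts, and pairs across groups were not compared. Total counts per library were 28761674 to 34282716.

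The 57 gene lists, most compiled from gene function and some found by annotated name, and the choice of these 6 libraries as a subject were made with earlier results of these data known. They hold 1631 entries, and 10 further names matched no gene. Named genes are NPF8.4, the 10 largest increases and decreases without overlap whose mean reaches 5 CPM on either day, the key members and up to 4 members with the smallest p of each list, the 10 smallest p for the difference from Col-0, the 5 most abundant genes of each day, and genes at 0 reads on 1 day and at least 100 on the other, from which the text draws. AAP4, SIAR1, AT5G16130 and members named because few moved their way (NRG2, NPF5.16, CAT6, XDH2, EMB1220, AT3G01170, AT5G15260, SMR1, KRP1, PAA2, DIT1 and PES1) or against others of their kind (ARR8, ARR9, ARR15, ARR16, LSU3 and LSU4) were chosen after their values were seen. Promoters were read from the RefSeq genome and annotation of TAIR10.1, in which 36810 genes matched by locus name and 36794 of these by start and end.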

Additional observations from a re-analysis of the deposited data

How the results depend on the processing

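The counts of 6303 genes higher and 6141 lower stayed within 1.5 times under the 13 alternatives. They ran from 5506 to 6218 higher and from 5584 to 5978 lower without 1 mutant library, and from 2144 to 2624 and 2618 to 2989 for changes of at least 2-fold. Scaling by library totals alone gave 6805 higher and 5441 lower and moved the median log2 fold change by 0.07. Of 1018 list genes called, 881 kept the call under all 13 alternatives and none passed in the opposite direction. Counts of at most 2 members against a list's main direction often moved by 1 when 1 library was left out, as in the amino acid transport, auxin, phosphate, flavonoid, ethylene, protein folding, root and meristem lists. Of 361 list genes that did not pass, 244 stayed so. The count of genes whose change differed from that in Col-0, 0 by edgeR, was 269 by DESeq2 and between 0 and 6 without 1 library, 6 being without Col-0 day 2 replicate 1. NPF8.4 was at 0.80 by DESeq2 and from 0.37 to 1.34 without 1 library. Some genes that did not pass changed sign over the alternatives in which they were tested. ARR5 ran from −0.24 to 1.00, ARR8 from −0.08 to 0.13, LSU1 from −0.42 to 0.75, LSU3 from −1.07 to 0.05 and VSP1 from −2.82 to 0.19. The cause of these shifts was not tested.

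A replicate block was fitted because the groups share numbers 1 to 3. It gave 43 genes for the difference from Col-0 and a log2 fold change of 0.82 for NPF8.4 with an edgeR adjusted p of 0.0467, and it passed ASN1 at 0.0433. It also gave 8 clock genes lower in place of 5. Deviations of day 0 and day 2 libraries with the same number correlated at 0.0683, −0.172 and 0.244. With 3 libraries per group these values cannot decide whether libraries of the same number were paired. Replicate 3 was the one whose correlation was highest with its own number from both days.

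The depth of the libraries leaves genes of few reads uncertain, and single genes of near-identical families remain so whatever the depth.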
